A study of Homo sapiens with 16 samples.

Results

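Untreated SH-SY5Y cultures grown in a silk-collagen scaffold (3D) were compared with untreated cultures of the same cells on flat dishes (2D), across all 19898 genes of the deposited table. SH-SY5Y is an established human neuroblastoma line that derives from the sympathetic nervous lineage and can be differentiated into cells with neurites. The comparison used 8 of the 16 libraries of the series, 4 of untreated 2D and 4 of untreated 3D cultures, chosen by the culture and treatment in their titles. Cultures of both groups were differentiated for 15 days, to cells that the labels call dopamine-like neurons, and neither group received a toxin. The other 8 libraries, 4 in 2D and 4 in 3D, came from cultures given 1 mM MPP, a compound taken up by catecholamine neurons that blocks electron entry at complex I in mitochondria, over 48 h starting on day 13. They share the model fit and enter a comparison of their own at the end. At harvest the 2D cells were detached with Accutase, an enzyme mixture, and pelleted, whereas the scaffolds went into tubes whole. Both were then frozen, so the surroundings of the cells and their handling cannot be told apart. All groups are the same cell line, and whether the 4 libraries per group are from separate cultures is not stated in the labels. The p-values therefore measure only the spread between these samples, which may be technical.

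Sympathetic neurons and their tumours make catecholamines in a chain of enzymes: TH turns tyrosine into L-DOPA, DDC turns L-DOPA into dopamine, and DBH turns dopamine into noradrenaline inside vesicles that the transporters SLC18A1 and SLC18A2 fill. Cells sense oxygen through prolyl hydroxylases of the EGLN family, which mark the hypoxia-inducible factors HIF1A and EPAS1 for destruction by VHL while oxygen is plentiful. When the factors persist they bind short hypoxia response elements in the DNA and raise genes of glucose uptake, glycolysis and blood vessel growth. Integrins and the actin cytoskeleton, in turn, tie cells to the matrix around them, so genes of adhesion are commonly examined when a culture surface changes.

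Values are normalised read counts, that is, reads of a gene divided by a size factor of the library, given as mean ± SD over n = 4 libraries or per library in the order of the replicate numbers. Log2 changes are 3D minus 2D on the log2(value + 1) scale, with the standard error (SE) and the Benjamini-Hochberg adjusted p of limma, and a gene rose or fell only where that p was under 0.05. The first principal component of the 8 libraries held 56.8% of the variance and parted 3D, at 52.1 to 62.5, from 2D, at -60.8 to -53.4. The second held 11.9% and set 3D replicate 3, at 59.1, apart from the other 7 libraries, at -32.6 to 11.1. Depth was lower in 3D, with 24589435 to 34658873 reads against 34643854 to 46359070 in 2D, and the median SD of a gene on the log2 scale was 0.209 in 3D against 0.134 in 2D.

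Of 16984 genes tested, 7830 differed between the groups (46.1%): 3932 rose in 3D (23.2%) and 3898 fell (23%). The changes of 2-fold or more were fewer, 2106 genes (12.4%), of which 1176 rose (6.92%) and 930 fell (5.48%). At the far end the balance was uneven. A log2 change of 4 or more was met by 103 genes that rose and 3 that fell, and a log2 change of 2 or more by 465 and 187. The 4 values of each group lay wholly on opposite sides for 39.7% of the genes tested. Most genes named below were picked among those so separated, so a lack of overlap in them follows from the choice. The median log2 change of all genes tested was 0.01. When each library was scaled to equal totals of its nuclear genes only, 38.3% of the called genes were higher in 3D, against 50.2% in the values as deposited. In these bulk samples fewer cells of a kind and less RNA per cell cannot be told apart.

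**Figure D1:**
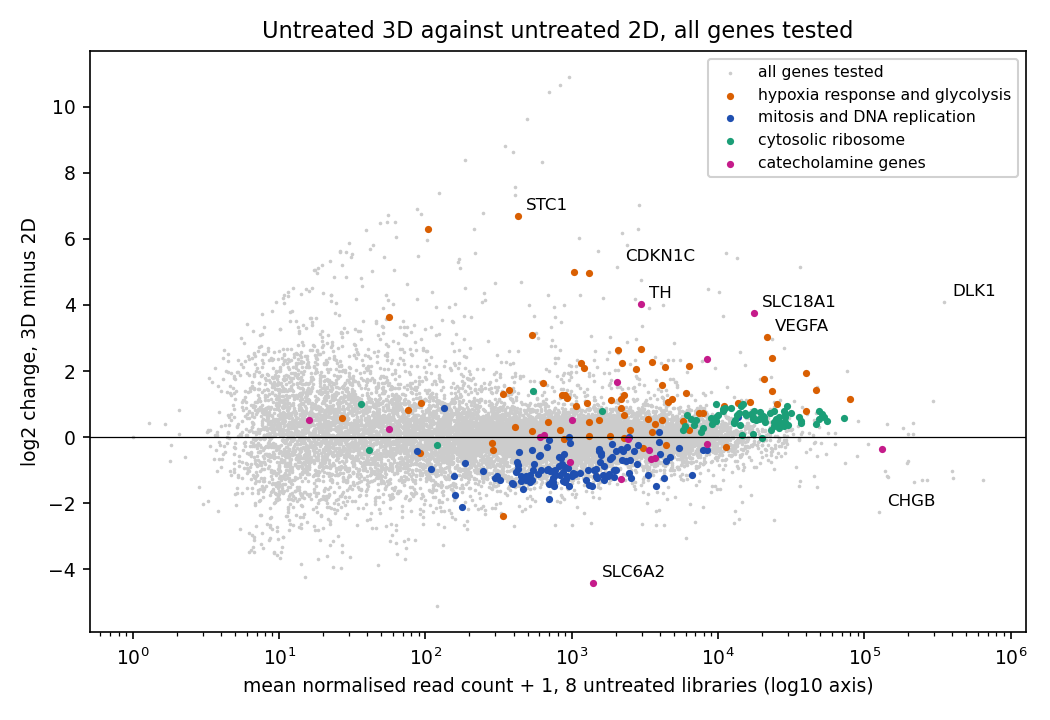
Log2 change (3D minus 2D, vertical axis) against the mean normalised read count over the 8 untreated libraries (horizontal, log10 scale) for 16984 genes in grey. Coloured points are the genes of 6 lists in 4 colours, and 8 genes are named. Glycolysis and hypoxia-response genes lie mostly above 0, mitosis and DNA replication genes mostly below it, and cytosolic ribosome genes form a tight band with a median of 0.56.

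The catecholamine pathway changed in opposite directions along its length: the enzymes up to dopamine and the vesicle transporters rose in 3D, while the reuptake transporter and the degrading monoamine oxidases fell. Of 18 genes of catecholamine synthesis, storage and breakdown, 5 rose and 7 fell (27.8% and 38.9%, against 23.2% and 23% of all genes tested). Their median log2 change was -0.02. TH was 319.7, 359.8, 319 and 367 in 2D and 5845, 5119, 4759 and 6616 in 3D (log2 4.02, SE 0.11, limma adjusted p = 2.21e-18). DDC, the decarboxylase that follows it, was 2849, 2795, 2820.2 and 2517 in 2D and 13558, 13830.1, 14346 and 14838 in 3D (log2 2.37, SE 0.1, limma adjusted p = 1.73e-14). No 3D library came near the 2D range for either enzyme. SLC18A1, the vesicular monoamine transporter typical of chromaffin cells, was 2587, 2248, 2509.9 and 2389 in 2D and 31306, 31852, 32505 and 34919 in 3D (log2 3.75, SE 0.082, limma adjusted p = 1.37e-19). Its relative in neurons, SLC18A2, rose by less, from 975 ± 76.6 to 3129 ± 173 (log2 1.68). The ratio of the groups was larger for the chromaffin-type transporter than for the neuronal transporter in these libraries.

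SLC6A2, which takes noradrenaline back into the cell, was 2577, 2791, 2648 and 2709.8 in 2D and 101, 164, 112 and 127 in 3D (log2 -4.42, SE 0.15, limma adjusted p = 2.87e-16). The 3D libraries were all far below the lowest 2D library. MAOA and MAOB, the outer mitochondrial membrane enzymes that break monoamines down, fell from 3057 ± 234 to 1265 ± 114 and from 1217 ± 43.6 to 723 ± 59.6 (log2 -1.27 and -0.75). ALDH2, which clears the aldehyde they make, fell from 4236 to 2684. GCH1, which makes the cofactor that TH needs, fell from 4495 ± 255 to 2878 ± 204 (log2 -0.64, limma adjusted p = 4.53e-07). DBH, the step from dopamine to noradrenaline, was 160587, 143648, 142087 and 148595 in 2D and 103565, 117356, 114631 and 124682 in 3D (log2 -0.37, SE 0.082, limma adjusted p = 7.56e-04). It fell by a small amount, lost under quantile normalisation (log2 0.10, adjusted p = 0.502), and stayed among the genes with the most reads in both groups, and transcripts of every enzyme from TH to DBH were measured in both groups.

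**Figure D2:**
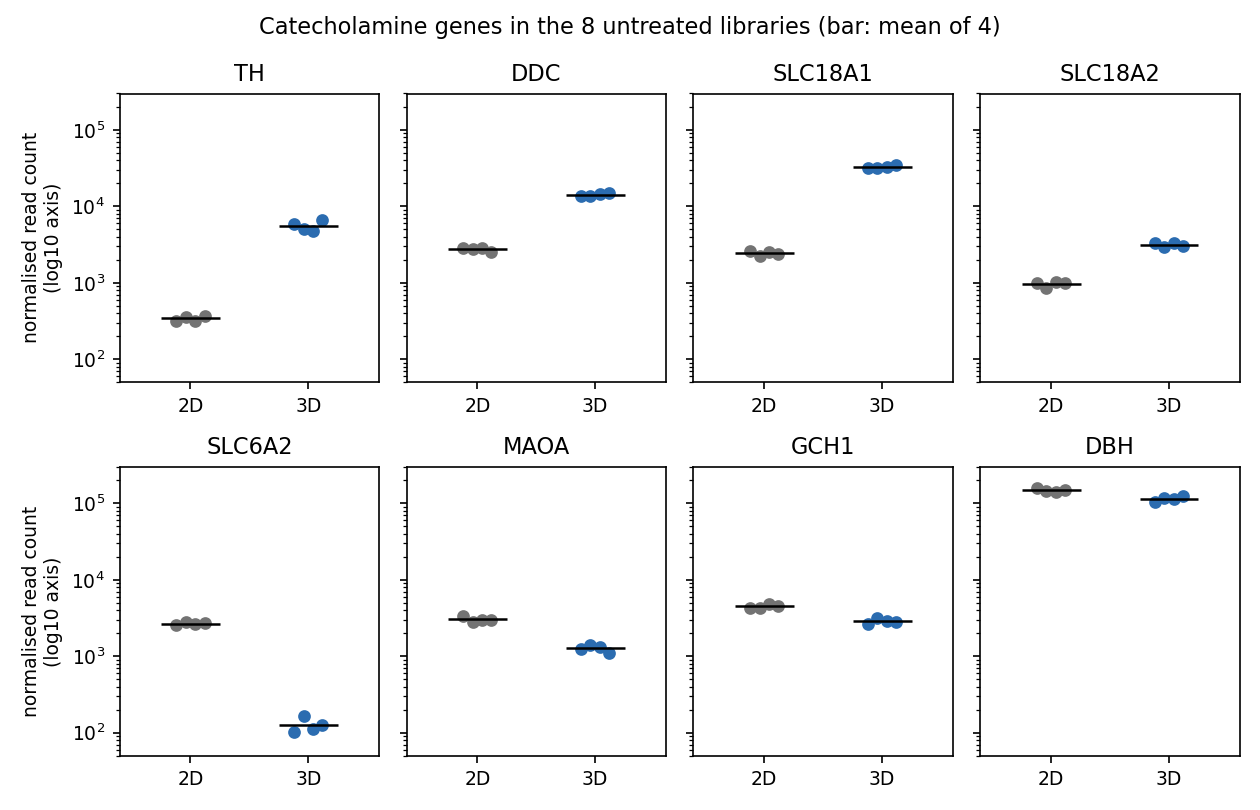
Normalised read counts (log10 axis) of 8 catecholamine genes in each untreated library, 2D in grey and 3D in blue, with a bar at the mean of 4. TH, DDC, SLC18A1 and SLC18A2 are higher in every 3D library than in any 2D library, and SLC6A2, MAOA, GCH1 and DBH are lower in every 3D library.

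The labelled cell type was checked against markers. Of 11 dopamine neuron markers 6 were in the table and 4 of them rose: TH, DDC, SLC18A2 and PITX3, the last from 41.3 to 76.8 with a limma adjusted p = 0.0419 that rose to 0.0532 to 0.115 without any 1 of 7 libraries and in edgeR (adjusted p = 0.0513). NR4A2, a nuclear receptor that midbrain dopamine neurons depend on, was near 0 in both groups, at 3.45, 2.06, 6.28 and 0 in 2D and 4.22, 9.39, 11.2 and 5.97 in 3D. LMX1B, another midbrain factor, had means of 51 and 61.1 and was not called, and SLC6A3, LMX1A, FOXA2, EN1 and KCNJ6 were not analysed here. In a wider list of 11 dopamine neuron genes tested 3 rose and 4 fell (27.3% and 36.4%, against 23.2% and 23% of all genes tested). Those that fell were CALB1, a calcium-binding protein (log2 -1.95), BNC2, a zinc finger protein (-1.22), the GDNF receptor RET (-0.58) and the dopamine receptor DRD2 (-0.25). The call of DRD2 was lost without 2D replicate 1, 2D replicate 2 or 3D replicate 2 (limma adjusted p = 0.0552 to 0.0862). The noradrenergic markers had far more reads: the sum of the 9 ran from 264440.0 to 291530.0 in 2D and from 209620.0 to 241700.0 in 3D. On these markers both groups carried a sympathoadrenal pattern with catecholamine genes, and the midbrain factors NR4A2 and LMX1B were low.

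Of 18 transcription factors of the sympathoadrenal state, 4 rose and 7 fell (22.2% and 38.9%, against 23.2% and 23% of all genes tested). ISL1, KLF7, TFAP2B and PHOX2A fell, with log2 changes of -0.88, -1.11, -0.77 and -0.36. GATA2 rose from 6122 ± 279 to 10340.0 ± 1043 (log2 0.75), GATA3 rose by log2 0.28, and HAND2, at 43807 and 45725, was not called. INSM1, a zinc finger repressor of neuroendocrine progenitors, was 0, 0, 4.71 and 0 in 2D and 663, 646, 755 and 739.8 in 3D (log2 8.82, SE 0.49, limma adjusted p = 1.68e-12). It had reads in 1 of the 4 dish libraries and was measured in each scaffold library. MYCN, an oncogene that is amplified in many other neuroblastomas, had low values of 247 and 192 and was not called. Over all 16 libraries the genes whose log2 values followed TH most closely were PRSS56, CHRND, YRDC and ALPK3, with Pearson r of 0.998, 0.994, 0.989 and 0.988, a description over libraries of 4 groups that share the 2D and 3D contrast.

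The peptide cargo of the dense core granules changed in both directions. Of 13 granule and processing genes tested 5 rose and 7 fell (38.5% and 53.8%, against 23.2% and 23% of all genes tested). Of 20 neuropeptide and peptide hormone precursors 10 rose and 4 fell (50% and 20%). CHGB, a granin that packs the granules, was 215736, 196587, 208072 and 211111 in 2D and 42025, 46526, 37248 and 46935 in 3D (log2 -2.27, SE 0.077, limma adjusted p = 2.49e-16). VGF, a granin-like precursor induced by neurotrophins, went the other way at 195452, 192395, 180641 and 184246 in 2D and 367513, 424480.4, 358568 and 456446 in 3D (log2 1.09, SE 0.085, limma adjusted p = 6.62e-10). In both genes the groups were wholly separate. The reads of the whole granule list came to 1.30% ± 0.0453 of a 2D library and 1.42% ± 0.146 of a 3D library, a difference within the spread (exact permutation test, two-sided, p = 0.257, adjusted p = 0.257 over 8 lists). CPE, which trims prohormones, fell from 11629.9 to 7616, while PAM, which amidates them, rose from 8147 to 14217 and PCSK1, which cleaves them, from 308 to 429.8.

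CARTPT, the precursor of an appetite and stress peptide, was 562, 341, 518 and 456 in 2D and 18346, 22741, 24964 and 23074 in 3D (log2 5.58, SE 0.14, limma adjusted p = 1.96e-18). NPY, the classical co-transmitter of sympathetic neurons, was 10976, 9915, 11067 and 11096 in 2D and 1082, 1367, 1264 and 1517 in 3D (log2 -3.05, SE 0.11, limma adjusted p = 5.30e-16). VIP, a vasodilator peptide, fell from 1335 ± 192 to 209 ± 28 (log2 -2.67). NPY and VIP were lower in 3D and CARTPT higher. All 3 were chosen among genes whose groups do not overlap, which held for 39.7% of all genes tested. NMB, the neuromedin B precursor, rose from 519.8 ± 77.6 to 3095 ± 525, CRH, the corticotropin-releasing hormone, from 3.35 ± 3.32 to 117 ± 48.3, and its relative UCN from 207 ± 32.2 to 562 ± 109. NMU, the neuromedin U precursor, fell from 418 ± 19.7 to 194 ± 28.7.

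VGF and CARTPT each carry a cAMP response element, the palindrome TGACGTCA bound by CREB family factors, in the 250 bases before the gene start. It is in 350 of the 13114 promoters of tested genes in the RefSeq table (2.67%) and in 1 of 16 neuropeptide promoters. These 2 windows are shown because the genes are the granule and peptide genes with the most added reads, and they were picked after their matches were seen. A match describes the letters only. The element is in capitals, on chromosome 7 (101165570 to 101165819, minus strand) for VGF and on chromosome 5 (71719025 to 71719274, plus strand) for CARTPT, in GRCh38.p14 as read 5′ to 3′ on the gene's strand. It lies 79 bases before the start of VGF and 143 before that of CARTPT.
VGF: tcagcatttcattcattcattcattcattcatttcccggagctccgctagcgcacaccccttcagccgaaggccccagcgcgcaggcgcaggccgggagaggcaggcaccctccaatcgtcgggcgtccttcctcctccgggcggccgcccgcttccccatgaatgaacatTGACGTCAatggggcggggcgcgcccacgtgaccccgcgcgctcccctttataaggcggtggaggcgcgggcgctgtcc
CARTPT: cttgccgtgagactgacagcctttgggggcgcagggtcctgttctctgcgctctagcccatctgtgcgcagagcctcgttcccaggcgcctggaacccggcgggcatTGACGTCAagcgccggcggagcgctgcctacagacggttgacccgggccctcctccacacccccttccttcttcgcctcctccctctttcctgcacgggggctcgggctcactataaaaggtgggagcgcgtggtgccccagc

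Genes of the oxygen response and of glycolysis rose together. Of 51 hypoxia-response genes outside glycolysis tested, 39 rose and 3 fell (76.5% and 5.88%, against 23.2% and 23% of all genes tested). Their median log2 change was 1.07, against 0.01 over all genes tested. Of 24 genes of glycolysis and glucose uptake, 20 rose and 2 fell (83.3% and 8.33%), with a median of 1.04. The 2 that fell were PFKM and LDHB, the muscle-type phosphofructokinase and the heart-type lactate dehydrogenase, from 4775 to 4059 and from 12422 to 10177. PFKM was not called without 3D replicates 1 and 3 (adjusted p = 0.0594). Reads of the 24 glycolysis genes took 0.634% ± 0.0395 of each 2D library and 1.49% ± 0.0968 of each 3D library (exact permutation test over the 8 libraries, two-sided, p = 0.0286, the smallest that 4 against 4 allows, adjusted p = 0.0381 over 8 lists).

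The factors themselves did not move alike. EPAS1, also called HIF-2 alpha, was 5656, 5734, 5197 and 5538 in 2D and 24876, 25616, 26397 and 23127 in 3D (log2 2.18, SE 0.094, limma adjusted p = 2.10e-14). HIF1A was 9372, 8899, 8347 and 8977 in 2D and 6139.9, 7154, 8666 and 5396 in 3D (log2 -0.40, SE 0.1, limma adjusted p = 0.00315), with 3D replicate 3 inside the 2D range. EPAS1 was higher in every 3D library, and the mRNA of HIF1A was lower in most. Transcript levels say nothing of the protein, which is regulated by its breakdown. Among the oxygen sensors EGLN1 rose from 2711 ± 206 to 3968 ± 475 and EGLN3 from 1268 ± 159 to 1826 ± 179. HIF3A, a further hypoxia-inducible factor, rose from 583 ± 21.6 to 1035 ± 68.5, and VHL, at 6360.3 and 6624, was not called.

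Several targets were low on the dish. STC1, the secreted glycoprotein stanniocalcin, was 6.89, 2.06, 17.3 and 8.47 in 2D and 631, 876, 1095 and 764 in 3D (log2 6.68, SE 0.41, limma adjusted p = 1.01e-11). EPO, the red cell hormone whose gene is a classical EPAS1 target, was 1.72, 0, 3.14 and 3.18 in 2D and 203, 207, 171 and 239 in 3D (log2 6.29, SE 0.65, limma adjusted p = 5.47e-08). CA12, a carbonic anhydrase of the cell surface, was 37.9, 90.5, 62.8 and 65.6 in 2D and 1582, 2199, 2403 and 1887 in 3D (log2 5.00, SE 0.23, limma adjusted p = 8.75e-14). STC1 and EPO had few reads in any 2D library, CA12 was measured in all of them, and no group overlapped the other for any of the 3. VEGFA rose from 4723 ± 277 to 38563 ± 5555, the vasodilator peptide precursor ADM from 112 ± 25.3 to 960.1 ± 199, and DDIT4, an inhibitor of the mTOR kinase, from 815 ± 69.7 to 5143 ± 435. The collagen-modifying enzymes P4HA1, PLOD2 and LOXL2 rose by log2 2.27, 3.62 and 2.64. INHBA and CSRP2 fell, with log2 changes of -2.39 and -1.18.

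Glucose uptake and nearly each step of glycolysis were higher. HK2, the hexokinase that traps glucose in the cell, was 2370.4, 2311, 2335 and 2121 in 2D and 9517, 11827, 10673 and 9215 in 3D (log2 2.17, SE 0.082, limma adjusted p = 1.62e-15). LDHA, which turns pyruvate into lactate, was 10359, 9426, 9582 and 8279 in 2D and 28693, 32441, 33320.0 and 32619 in 3D (log2 1.76, SE 0.07, limma adjusted p = 5.05e-15). Every 3D library exceeded every 2D library for both. PGK1, an ATP-making step, rose from 12882 ± 449.5 to 34153 ± 4112, and GPI, the second step, from 7403 ± 420.2 to 39312 ± 4457. In the respiratory chain, 2 subunits that replace others under low oxygen in many cells rose, while the chain as a whole did not: NDUFA4L2 was 50.8, 88.4, 91.1 and 110.1 in 2D and 4259, 4870.3, 4668 and 4898 in 3D and COX4I2 was 14.6, 22.6, 18.8 and 23.3 in 2D and 224, 262, 202 and 265 in 3D (log2 5.81 and 3.53). Of 37 nuclear subunits of complex I 3 rose and 3 fell (8.11% each, against 23.2% and 23% of all genes tested). Of 43 subunits of complexes II to V 7 rose and 4 fell (16.3% and 9.30%).

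**Figure D3:**
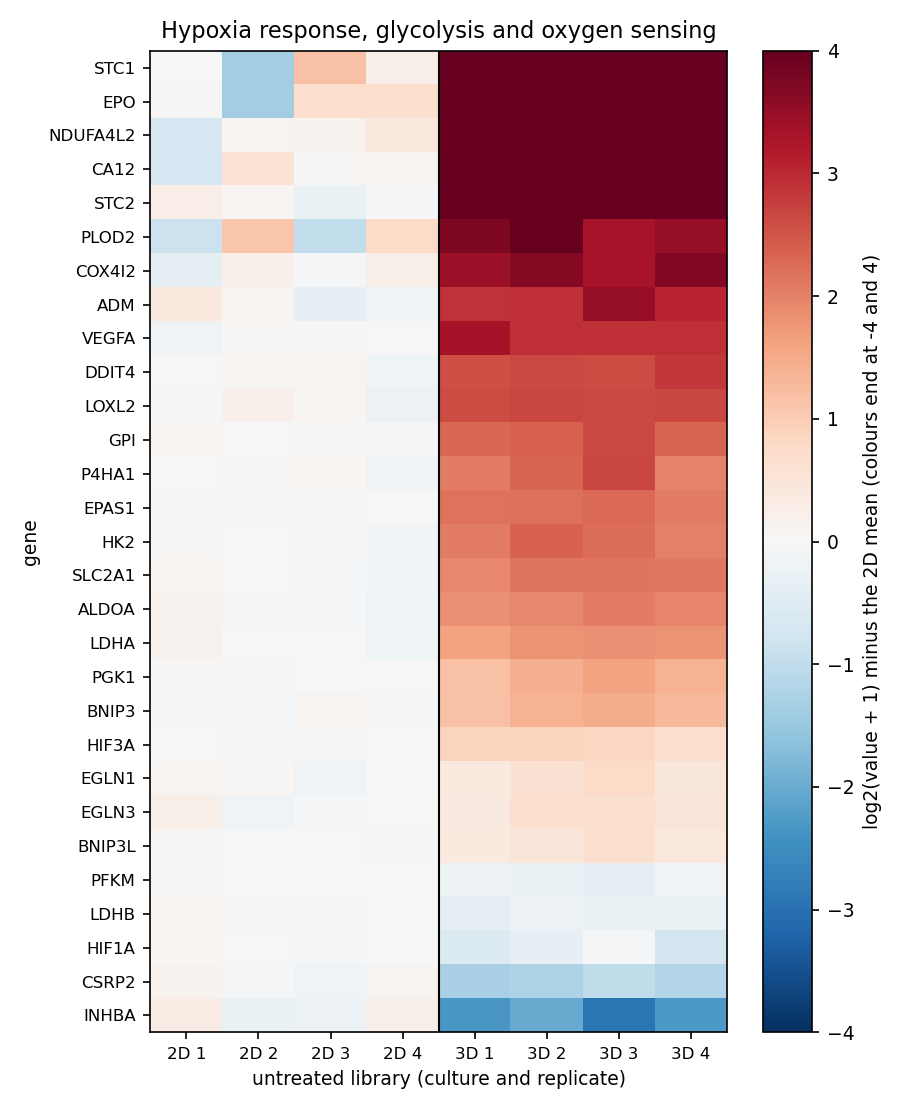
Log2(value + 1) of hypoxia-response and glycolysis genes in each untreated library, minus the mean of the 4 2D libraries, on a colour scale from -4 (blue) to 4 (red). Rows are the genes that the text names for these lists, ordered by their log2 change; the 3D columns are red for all rows but HIF1A, LDHB, PFKM, CSRP2 and INHBA.

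Promoters of 4 of these genes are shown because they hold more than 1 copy of the core hypoxia response element, ACGTG or GCGTG on either strand (CACGT or CACGC when read on the other), in the 250 bases before the start. At least 1 copy is in 55.2% of all 13114 promoters and at least 2 in 27.1%. The palindrome CACGTG counts as 2 copies, 1 on each strand, so a promoter with 2 can hold a single site. Of the 39 hypoxia-response genes whose promoter it lists, 29 hold 1 or more (74.4%) and 20 hold 2 or more (51.3%). For 21 glycolysis genes the counts are 12 (57.1%) and 6 (28.6%). The list was drawn up from genes known to answer to low oxygen, and the windows were picked after their matches were seen. The matches, which can overlap, are in capitals: 6 for BNIP3, a mitophagy receptor (chromosome 10, 131981924 to 131982173, minus strand), 3 for PGK1 (chromosome X, 78103998 to 78104247, plus strand), 5 for LDHA (chromosome 11, 18394313 to 18394562, plus strand) and 3 for HK2 (chromosome 2, 74833877 to 74834126, plus strand), from RefSeq in GRCh38.p14.
BNIP3: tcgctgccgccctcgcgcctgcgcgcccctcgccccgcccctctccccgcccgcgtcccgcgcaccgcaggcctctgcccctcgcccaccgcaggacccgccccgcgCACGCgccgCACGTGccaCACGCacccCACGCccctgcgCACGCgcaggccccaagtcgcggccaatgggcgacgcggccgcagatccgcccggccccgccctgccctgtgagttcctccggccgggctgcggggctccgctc
PGK1: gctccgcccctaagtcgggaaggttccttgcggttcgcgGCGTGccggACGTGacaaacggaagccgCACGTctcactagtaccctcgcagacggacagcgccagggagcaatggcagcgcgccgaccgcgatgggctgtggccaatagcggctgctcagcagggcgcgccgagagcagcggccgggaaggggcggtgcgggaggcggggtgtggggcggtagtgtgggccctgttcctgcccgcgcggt
LDHA: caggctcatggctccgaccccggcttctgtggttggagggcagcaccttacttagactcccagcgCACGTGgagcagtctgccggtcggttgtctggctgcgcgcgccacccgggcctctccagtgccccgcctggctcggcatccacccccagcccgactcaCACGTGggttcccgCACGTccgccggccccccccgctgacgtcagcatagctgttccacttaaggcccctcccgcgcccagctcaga
HK2: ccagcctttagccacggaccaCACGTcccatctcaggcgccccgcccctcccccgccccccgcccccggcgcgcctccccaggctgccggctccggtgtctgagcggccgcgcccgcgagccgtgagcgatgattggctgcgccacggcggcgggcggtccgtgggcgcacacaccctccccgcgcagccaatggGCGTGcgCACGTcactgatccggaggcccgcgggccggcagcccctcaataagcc

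BNIP3 rose from 3397 ± 214 to 8602 ± 739 (log2 1.34, limma adjusted p = 8.08e-13), and its relative BNIP3L, also a receptor for the removal of mitochondria, rose from 4779 ± 148 to 6731 ± 525. All 13 mRNAs of the mitochondrial genome fell, with a median log2 change of -1.21. They took 7.72%, 11.6%, 10.1% and 9.06% of reads in 2D and 6.84%, 3.30%, 3.89% and 3.85% in 3D (exact permutation test, two-sided, p = 0.0286, adjusted p = 0.0381 over 8 lists). The 3D replicate 1 lay apart from its group, close to the lowest 2D library. COX1, a core subunit of complex IV, fell from 916128 ± 191450.5 to 383719 ± 140804 (log2 -1.30), whereas ND1, of complex I, fell by log2 -0.73 with the groups overlapping, and was not called under quantile normalisation (adjusted p = 0.114). Of 74 proteins of the mitochondrial ribosome 27 rose and 3 fell (36.5% and 4.05%, against 23.2% and 23% of all genes tested). Of 47 genes of pyruvate oxidation and the tricarboxylic acid cycle 3 rose and 11 fell (6.38% and 23.4%). With library totals equalised over nuclear genes these counts became 15 and 7, and 3 and 17.

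Genes of amino acid stress and of protein synthesis were higher in 3D. The integrated stress response slows translation through kinases of eIF2 and raises ATF4, a factor that turns on amino acid genes. Of 35 targets and sensors of it tested 23 rose and 2 fell (median log2 0.39). That was 65.7% and 5.71%, against 23.2% and 23% of all genes tested. ATF4 itself was 3760.2, 3534, 3914 and 3939.8 in 2D and 9404, 8468, 9423 and 9638 in 3D (log2 1.29, SE 0.06, limma adjusted p = 9.25e-14). CHAC1, which breaks down glutathione, was 153, 158, 223 and 144 in 2D and 1173, 1162, 1457 and 1351 in 3D (log2 2.93, SE 0.14, limma adjusted p = 1.23e-13). Neither gene had a 3D value within the 2D range. DDIT3, the CHOP factor, rose from 435 ± 35.8 to 1555 ± 177, SESN2, a leucine sensor, from 555 ± 72 to 1384 ± 151, and SHMT2, of mitochondrial folate metabolism, from 1062 ± 57.9 to 4494 ± 231. Of 19 cytosolic tRNA synthetases 11 rose and 3 fell (57.9% and 15.8%). WARS1 and HARS1 were among the latter at log2 -0.47 and -0.28, and GARS1 among the former at 0.82.

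The window before CHAC1 is shown because it holds the element TGATGNAA, or TTNCATCA on the other strand, that ATF4 and its partners bind (chromosome 15, 40953221 to 40953470, plus strand, RefSeq, GRCh38.p14), 209 bases before the start and in capitals below. The element is in 1.53% of all promoters and in 4 of 29 of the stress response list (13.8%).
CHAC1: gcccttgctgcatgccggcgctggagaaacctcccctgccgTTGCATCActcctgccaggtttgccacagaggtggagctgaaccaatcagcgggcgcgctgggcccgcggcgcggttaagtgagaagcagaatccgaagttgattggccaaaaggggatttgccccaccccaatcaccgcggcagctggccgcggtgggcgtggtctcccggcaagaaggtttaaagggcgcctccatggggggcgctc

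Over all genes tested 23.2% rose and 23% fell. Of 77 cytosolic ribosomal proteins 71 rose and 0 fell (92.2% and 0%, median log2 0.56). Their reads made up 3.48% ± 0.127 of the 2D and 5.16% ± 0.486 of the 3D libraries (exact permutation test, two-sided, p = 0.0286, adjusted p = 0.0381 over 8 lists). Of 43 translation factors 23 rose and 5 fell (53.5% and 11.6%), and of 49 nucleolar genes 20 rose and 2 fell (40.8% and 4.08%). In the endoplasmic reticulum, where secreted proteins fold, 15 of 30 genes rose and 2 fell (50% and 6.67%). XBP1, a factor of the unfolded protein response, rose from 1748 ± 55.2 to 3786 ± 302, and CALR, a calcium-binding chaperone, fell from 17228 ± 543 to 14335 ± 1033. The immediate early genes, which cells turn on within minutes of a stimulus, counted 14 that rose and 1 that fell of 29 (48.3% and 3.45%). FOS was at 495, 487, 425 and 391 in 2D and 1263, 1316, 1510.1 and 909.8 in 3D. BTG2 was at 1318, 1397, 1234 and 1157 in 2D and 3638, 3374, 3784 and 3381 in 3D. The 2D cells alone passed through enzyme detachment, and the part of the handling in these early genes was not tested.

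Cell division genes were lower almost without exception. Over all genes tested 23.2% rose and 23% fell. Of 59 genes of mitosis tested 0 rose and 57 fell (median log2 -1.14), and of 58 genes of DNA replication and S phase entry 3 rose and 49 fell (median -0.65). Their transcripts were still measured in 3D: MKI67, the proliferation antigen, was 6406, 5521, 5049.7 and 6994 in 2D and 2350.0, 2576, 2373 and 2767 in 3D (log2 -1.24, SE 0.16, limma adjusted p = 2.04e-06). CENPE, a motor of the kinetochore, was 1158, 1113, 954 and 1130.5 in 2D and 304, 322, 283 and 283 in 3D (log2 -1.86, SE 0.18, limma adjusted p = 2.90e-08). Both genes were lower in every 3D library, and neither was at 0. The mitosis genes took 0.307% ± 0.0145 of reads in 2D and 0.157% ± 0.00757 in 3D (exact permutation test, two-sided, p = 0.0286, adjusted p = 0.0381 over 8 lists).

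Inhibitors of the cyclin-dependent kinases did not share a direction. CDKN1C, the p57 inhibitor, was 133, 139.8, 83.2 and 82.6 in 2D and 3369, 4625, 2647 and 5155 in 3D (log2 5.15, SE 0.21, limma adjusted p = 1.05e-14). CDKN1A, the p21 inhibitor that p53 raises, fell from 7595 ± 335 to 4168 ± 276 (log2 -0.87). CCND1 and CCND2, the D-type cyclins, were the exceptions of the replication list that rose by most, from 10822 ± 646 to 16638 ± 930.4 and from 93.3 ± 14.2 to 172 ± 30.5. E2F7 and E2F8, the repressor members of the E2F family, and the helicase loader CDC45 fell by 2.11, 1.75 and 1.57 on the log2 scale.

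E2F1, the activator of S phase genes, was 2508, 2390.1, 2257 and 2261 in 2D and 974, 906, 827 and 1181 in 3D (log2 -1.29, SE 0.17, limma adjusted p = 1.65e-06). Its promoter (chromosome 20, 33686386 to 33686635, minus strand, RefSeq, GRCh38.p14) is shown because the element that E2F factors bind, written here as TTTCGCGC, TTTGGCGC or TTTCCCGC on either strand, lies 20 bases before its own start. These letters are in 3.52% of all promoters, in 17 of 47 promoters of the replication list (36.2%) and in 4 of 49 of the mitosis list (8.16%). E2F1 and PGK1 were named after their values were seen.
E2F1: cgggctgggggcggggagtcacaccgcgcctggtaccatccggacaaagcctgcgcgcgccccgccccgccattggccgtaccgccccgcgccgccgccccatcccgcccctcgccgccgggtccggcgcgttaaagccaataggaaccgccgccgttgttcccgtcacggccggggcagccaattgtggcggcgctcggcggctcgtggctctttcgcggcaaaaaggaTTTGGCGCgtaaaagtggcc

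Genes that mark neurites were mostly lower in 3D. Of 23 neuronal filament, tubulin and microtubule genes tested 1 rose and 16 fell (median log2 -0.42). These are shares of 4.35% and 69.6%, against 23.2% and 23% of all genes tested. GAP43, a growth cone protein, was 8696, 8103, 8222 and 8062 in 2D and 3218, 3783, 4005 and 4017 in 3D (log2 -1.14, SE 0.079, limma adjusted p = 8.50e-11). The neurofilament chains NEFL and NEFM fell from 17897 ± 923 to 9361 ± 764 and from 7052 ± 379 to 3592 ± 284, STMN2, which keeps axonal microtubules dynamic, from 31824 ± 1836 to 16426 ± 1701, and DCX, of migrating young neurons, from 12763 ± 1249 to 5847 ± 897. The declines of MAP2 and TUBB3, widely used neuron markers, were smaller, at log2 -0.39 and -0.24, and that of TUBB3 was no longer called without 2D replicate 1, 3D replicate 1 or 3D replicate 2 (limma adjusted p = 0.0632 to 0.102). The reads of the list fell from 0.872% ± 0.0451 to 0.652% ± 0.0355 of a library (exact permutation test, two-sided, p = 0.0286, adjusted p = 0.0381 over 8 lists). TUBB2B, a tubulin of young neurons, rose from 16873 ± 1034 to 23669 ± 2838. Of 13 neuron markers 10 fell, 1 rose and 2 were not called, SYP among them at 11368 and 10649. The marker that rose was RBFOX3, at 34.5, 55.5, 69.1 and 25.4 in 2D and 159, 88.1, 99.6 and 143 in 3D (log2 1.45, limma adjusted p = 9.12e-04).

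ELAVL4, a neuronal RNA-binding protein that stabilises many neurite mRNAs, was 23167, 20899.9, 21077 and 21137 in 2D and 4322, 5049, 4655 and 4466 in 3D (log2 -2.22, SE 0.11, limma adjusted p = 4.10e-13). The 3D libraries were all far below the 2D range. Of 28 genes of transmitter release 3 rose and 16 fell (median -0.29). That was 10.7% and 57.1%, against 23.2% and 23% of all genes tested. SYT1, the calcium sensor of release, fell from 8738 ± 434 to 4019 ± 589.7 and CPLX2, its partner, from 5676 ± 404 to 2845 ± 278, whereas the vesicle proteins VAMP2 and RAB3A rose from 3905 ± 292 to 6935 ± 288 and from 3935 ± 260.0 to 6056 ± 44.2. Of 56 transmitter receptors 7 rose and 26 fell (12.5% and 46.4%). GABRP, a GABA receptor subunit more usual outside the brain, was 274, 209.7, 207 and 228 in 2D and 2.11, 9.39, 2.81 and 14.9 in 3D, nearly gone in 3D, and HTR2C, a serotonin receptor, rose from 24.6 ± 7.92 to 209 ± 26.4.

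Of 14 voltage-gated sodium channel subunits 0 rose and 11 fell (0% and 78.6%, median -0.86). SCN9A, the Nav1.7 channel of peripheral neurons, was 4393, 4064, 3816 and 4986 in 2D and 1575, 1969, 2035 and 1641 in 3D (log2 -1.26, SE 0.13, limma adjusted p = 3.55e-08), with no overlap. SCN3A, SCN1A and SCN7A fell as well, with log2 changes of -1.43, -2.23 and -2.70. Of 16 calcium channel genes 4 rose and 5 fell (25% and 31.2%, near the 23.2% and 23% of all genes tested), and all 3 low-voltage T-type channels (CACNA1G, CACNA1H and CACNA1I) rose. CACNA1H was 3.45, 2.06, 6.28 and 2.12 in 2D and 752, 714, 1107 and 698 in 3D (log2 7.58, SE 0.34, limma adjusted p = 3.02e-14), from near silence in 2D, and CACNA1G rose from 1498 ± 111 to 3910.0 ± 93.7. CACNA2D1, an accessory subunit, fell from 6808 ± 411 to 3144 ± 452. Of 55 potassium channel genes 8 rose and 18 fell (14.5% and 32.7%, against the same 23.2% and 23%).

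Of 63 axon guidance ligands and receptors 11 rose and 32 fell (median -0.21). The shares were 17.5% and 50.8%, against 23.2% and 23% of all genes tested. PLXNA4, a semaphorin receptor, was 7061, 5891, 5683 and 7261 in 2D and 1057, 1257, 935 and 861 in 3D (log2 -2.66, SE 0.14, limma adjusted p = 1.09e-12). The semaphorin SEMA3C fell from 12838 ± 593 to 2990.2 ± 421 and the netrin receptor DCC from 158 ± 12.8 to 31.6 ± 17.5, while SEMA5B and NTNG2, a netrin tied to the membrane, rose from 562 ± 11.4 to 2933 ± 351 and from 891 ± 89.7 to 4481 ± 353. Gene length moved with the direction of change over the whole table, and many neuronal genes are long. Among the shortest 20% of gene spans (up to 10215 bases in GENCODE v29) 30.4% rose and 16.1% fell, and in the longest (from 103054 bases) 16% rose and 37.2% fell. Of the 63 guidance genes with a span 29 were among the longest 20%, where 17 fell, against 15 of the other 34. For the sodium channels 8 of 14 were in it, and for the neuronal cytoskeleton 3 of 23. The part of gene length in these declines was not tested.

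The genes through which cells bind and build matrix changed in both directions, with collagens tilted upward and adhesion genes downward. Of 33 collagen chains tested 14 rose and 5 fell (median 0.22). The shares were 42.4% and 15.2%, against 23.2% and 23% of all genes tested. COL17A1, a membrane collagen of hemidesmosomes, was 1783, 1529.6, 1454 and 1540.1 in 2D and 18309, 21426, 16754 and 23596 in 3D (log2 3.66, SE 0.095, limma adjusted p = 1.96e-18). COL27A1 and COL16A1 rose from 124 ± 34.6 to 586 ± 117 and from 789.9 ± 116 to 3379 ± 1351. The main fibre collagen COL1A1 had overlapping groups and a log2 change of 0.22 (limma adjusted p = 0.0309), and without 2D replicates 1, 3 or 4 or 3D replicates 1 or 4, each left out alone, that p was 0.0513 to 0.133.

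Of 42 integrin subunits and focal adhesion proteins 8 rose and 17 fell (19% and 40.5%, against 23.2% and 23% of all genes tested). ITGB1, the beta chain shared by most matrix receptors, was 30831, 29576, 27642 and 31673 in 2D and 18069, 21577, 23683 and 16287 in 3D (log2 -0.60, SE 0.093, limma adjusted p = 1.66e-05). Its collagen-binding partner ITGA1 fell from 6213 ± 793 to 3141 ± 618 and its fibronectin-binding partner ITGA4 from 614 ± 58.3 to 219.7 ± 24.4. TNS3, a tensin that links integrins to actin, was 21107, 21980.3, 20528 and 24399 in 2D and 3588, 4001, 3424 and 3524 in 3D (log2 -2.60, SE 0.082, limma adjusted p = 7.85e-17), while its relative TNS1 rose from 2381 ± 216 to 5269.5 ± 626. The 3D values of ITGB1 and TNS3 were all below those of 2D.

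Of 47 laminins, proteoglycans and other matrix proteins 10 rose and 23 fell (21.3% and 48.9%, against 23.2% and 23% of all genes tested). Hyaluronan, the long sugar chain of soft matrix, is made by 3 synthases and bound by CD44. HAS1, 1 of the synthases, was 8.62, 0, 6.28 and 4.23 in 2D and 480.3, 528, 445 and 483 in 3D (log2 6.79, SE 0.49, limma adjusted p = 1.88e-10), and CD44, the receptor, was 267, 195, 276 and 200.1 in 2D and 10.6, 30.5, 33.7 and 26.8 in 3D (log2 -3.26, SE 0.28, limma adjusted p = 4.02e-09). VCAN, a proteoglycan that binds hyaluronan, was 7665, 6386, 6326 and 9234 in 2D and 993, 1259, 1228 and 1159 in 3D (log2 -2.66, SE 0.16, limma adjusted p = 1.21e-11). HAS1 was nearly silent on the dish, and the 2 binding proteins were higher there. Of the other synthases HAS3, the one with the most reads in 2D, fell from 150.0 ± 28.7 to 62.4 ± 14.7, and HAS2 had means of 5.85 and 28.1 (log2 2.37, limma adjusted p = 0.0185), a call lost without 2D replicate 4, 3D replicate 3 or 3D replicate 4 (adjusted p = 0.0544 to 0.0867). FN1 and TNC, matrix glycoproteins, fell from 2165 ± 197 to 1393 ± 193 and from 203 ± 21.3 to 55.1 ± 24.6, and SPARC, which binds collagen, rose from 3809 ± 211 to 7176 ± 671. Among the cadherins, CDH2, the neural cadherin, fell from 9509 ± 210.1 to 5504 ± 552 and CDH11 from 2009 ± 122 to 411 ± 61.3, while the large protocadherin-like FAT1 rose from 3606 ± 623 to 15483 ± 3754.

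Of 38 actin cytoskeleton genes and serum response factor targets 6 rose and 20 fell (median -0.21). These are shares of 15.8% and 52.6%, against 23.2% and 23% of all genes tested. The reads of this list fell from 1.19% ± 0.0507 to 0.992% ± 0.0404 of a library (exact permutation test, two-sided, p = 0.0286, adjusted p = 0.0381 over 8 lists). ACTB, cytoplasmic actin, fell from 92824 ± 7889 to 53812 ± 4033, and the crosslinker FLNC and tropomyosin TPM1 rose from 2447 ± 262 to 7728 ± 577 and from 2605 ± 174 to 5875 ± 333. Of 18 targets of YAP and TAZ, factors that respond to stiffness and cell spreading, 3 rose and 11 fell (16.7% and 61.1%, median -0.30). CCN1 fell from 116 ± 7.36 to 55 ± 21.2 and NT5E, a surface nucleotidase, from 691 ± 25.7 to 112 ± 42.4. YAP1 itself was near 0, at 0, 4.11, 0 and 14.8 in 2D and 0, 2.35, 0 and 2.98 in 3D, in both groups.

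Among signalling genes the change that took the most reads was in DLK1, a membrane protein of the Notch family that lacks the usual receptor-binding domain and marks immature and chromaffin cells. It was 42099, 41061, 38524 and 33542 in 2D and 606716, 659748, 695105 and 671779 in 3D (log2 4.09, SE 0.086, limma adjusted p = 1.01e-19). In 3D it had the highest mean normalised count of any gene, on a scale not divided by gene length. IGF2, a fetal growth factor, was 5912, 5904, 4989 and 4293 in 2D and 40394, 46368, 47523 and 32755 in 3D (log2 2.98, SE 0.12, limma adjusted p = 2.72e-15), and IGFBP5, which binds it, rose from 2489 ± 129 to 9757 ± 997. All 3D values of DLK1 and IGF2 lay above the 2D range.

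Of 25 Notch ligands, receptors and targets 11 rose and 5 fell (44% and 20%, against 23.2% and 23% of all genes tested). The target HEY1 rose from 1435 ± 66.1 to 4362 ± 321 and HES1 from 163 ± 22.5 to 277 ± 21.1, and the ligand JAG1 fell from 1454 ± 181 to 849 ± 81.9. Of 49 Wnt genes 14 rose and 17 fell (28.6% and 34.7%, against 23.2% and 23% of all genes tested). The ligands WNT10B and WNT4 rose from 73.6 ± 20.8 to 276 ± 65.9 and from 135 ± 51.1 to 351 ± 37.2, and the secreted inhibitor DKK1 fell from 2332 ± 169 to 391 ± 61.9. Of 29 genes of neurotrophin and GDNF signalling 7 rose and 13 fell (24.1% and 44.8%, against the same 23.2% and 23%). The receptors NTRK2 and RET fell, with log2 changes of -0.90 and -0.58, and NGFR, the shared low-affinity receptor, rose by 0.60. Of 23 retinoic acid genes 5 rose and 12 fell (21.7% and 52.2%, against the same 23.2% and 23%). CRABP2, which carries retinoic acid to its receptors, fell from 186635 ± 7413 to 92804 ± 9550.1 and STRA6, an uptake receptor for retinol, from 2091 ± 152 to 659.8 ± 80.4, whereas CYP26A1, which degrades retinoic acid, rose from 30933 ± 301 to 50735 ± 3779.7.

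A few genes had no reads at all in the 4 dish libraries and were measured in each scaffold library. FLT1, a VEGF receptor, was 0 in each 2D library and 1631, 1927, 2323 and 1779 in 3D, at least 2778-fold higher when 3 reads over the 2D group are taken as the floor. The tryptase genes TPSAB1, TPSB2 and TPSD1, proteases best known from mast cells, were also 0 in 2D and had means of 1648, 1394 and 368 in 3D. They are near-identical neighbours, so the split of reads among them is uncertain.

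Markers of other cell types were read beside these genes. Of 7 endothelial markers 2 were called higher, VWF, from 29.7 ± 10.6 to 82.5 ± 26.4, and TIE1, from 1.34 ± 0.914 to 13.3 ± 6.93, and none lower, and their sum ran from 199 to 227 in 2D and from 249 to 298 in 3D. PECAM1, which defines that cell type, was at 0 in all 8 libraries, and CDH5 had means of 5.92 and 3.57. In a wider endothelial list 4 rose and 0 fell of 7 tested, with FLT1 itself and EGFL7, a secreted protein of vessels, among them, the latter from 2115 ± 148 to 7229 ± 1174. Of the mast cell markers HDC and CMA1 had 3D means of 2.68 and 8.30, KIT was not called, and the sum of the 5 in the table, which holds the tryptases, ran from 242 to 364 in 2D and from 2683 to 3915 in 3D. Of the blood markers CD68, a lysosomal membrane protein abundant in macrophages, rose from 117 ± 35.2 to 1016 ± 190.0 (log2 3.14, SE 0.18, limma adjusted p = 4.86e-12), while PTPRC, which defines white blood cells, was at 0 in each 3D library and the globins HBA1 and HBA2 had 3D means of 6.27 and 1.33. The blood sum ran from 88.7 to 170.4 in 2D and from 764 to 1219.6 in 3D, and in a wider list of mast and blood cell genes 5 rose and 0 fell of 9 tested, 4 tryptases and CD68. Of 8 fibroblast markers 2 rose and 4 fell, with a sum from 13469 to 14320.0 in 2D and from 11018 to 12123 in 3D, and PRRX1 was at 0. No Schwann cell or glial marker of 6 was called, and SOX10, which defines that lineage, had a mean of 0 in 3D. In a wider list of that lineage 3 rose (25%, against 23.2% of all genes tested) and 0 fell of 12 tested. Those that rose were PMP22, NGFR and GFRA3, by log2 0.67, 0.60 and 0.70. The part of other cell types in these rises was not tested.

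**Figure D4:**
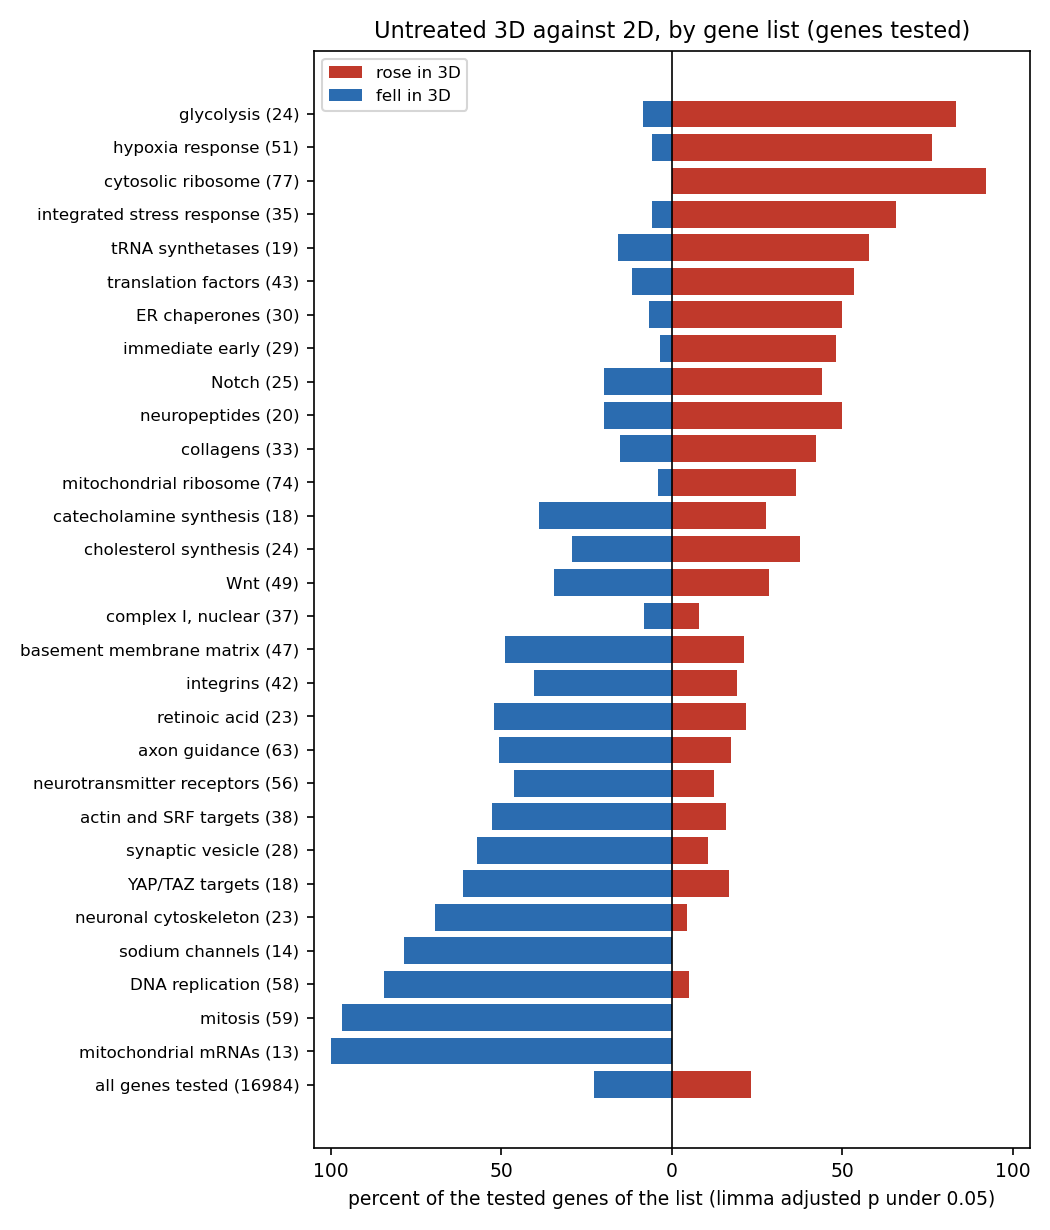
Percent of the tested genes of a list that rose (red, to the right) or fell (blue, to the left) in untreated 3D against 2D. The lists shown are a choice from the 66, with the number of genes tested beside the name. The last bar is all 16984 genes tested, at 23.2% and 23%. Glycolysis, hypoxia-response and cytosolic ribosome genes extend to the right, and mitosis, DNA replication, mitochondrial mRNA and sodium channel genes to the left.

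The same contrast was read in the cultures given MPP, which share no library with the untreated ones, to see which parts of the difference were present there too. Between MPP-treated 3D and 2D 6615 genes differed (38.9%). Of the 3932 genes higher in untreated 3D 1879 were also higher with MPP (47.8% of that list and 58.1% of the MPP list of 3232), and 153 were lower. Of the 3898 lower genes 2143 were also lower (55% and, of 3383, 63.3%), and 204 were higher. The difference between the contrasts, MPP-treated minus untreated, was itself called for 2602 genes (15.3%), of which 1189 were above 0 and 1413 below.

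Most of the glycolysis genes were not higher in 3D in the MPP cultures, and that of the hypoxia-response genes was seen there in fewer genes and with a lower median. Over the 24 glycolysis genes the median log2 change was 1.04 untreated and -0.14 with MPP, with 2 higher and 10 lower in 3D there, and the difference was called for 20 of them. For the hypoxia-response genes the medians were 1.07 and 0.22, with 33 of 51 differences called. Still, 22 of the 51 were higher in MPP-treated 3D (43.1%, against 19% of all genes tested) and 6 were lower (19.9% of all genes tested). VEGFA went from 4723 to 38563 untreated but from 8179.9 to 6992 with MPP (difference -3.25, SE 0.13, limma adjusted p = 5.45e-14). EPO went from 3.47 to 5.45 with MPP (difference -5.64, SE 0.92, limma adjusted p = 1.16e-04), HK2 from 1862 to 1664 (difference -2.33, SE 0.12, limma adjusted p = 2.25e-12) and NDUFA4L2 from 109.8 to 528 (difference -3.58, SE 0.27, limma adjusted p = 3.34e-09). CA12 kept its rise, from 12.3 to 355, and EPAS1 rose more, from 3236 to 20686 (difference 0.48, SE 0.13, limma adjusted p = 0.0158).

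Cell division genes and mitochondrial mRNAs also took other directions. DNA replication genes had medians of -0.65 untreated and 0.55 with MPP. There 43 of 58 were higher (74.1%, against 19% of all genes tested) and 0 lower. Mitosis genes went from a median of -1.14 to 0.05, and the mitochondrial mRNAs from -1.21 to 0.27. Cholesterol synthesis genes, of which 9 rose and 7 fell among 24 in untreated cultures, were lower in 23 and higher in 0 with MPP. Their reads made up 0.250% ± 0.00921 of untreated 2D and 0.268% ± 0.0103 of untreated 3D libraries (exact permutation test, two-sided, p = 0.0571, adjusted p = 0.0653 over 8 lists).

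Other parts of the difference were found in both contrasts. Sodium channels had medians of -0.86 and -0.90, neuronal cytoskeleton genes of -0.42 and -0.66, while the collagens had medians of opposite sign, 0.22 and -0.19. DLK1 went from 18988 to 369724 with MPP and CARTPT from 283 to 2673. In the catecholamine pathway TH went from 595 to 4241 (difference -1.18, SE 0.15, limma adjusted p = 5.52e-06) and SLC18A1 from 1726 to 4945 (difference -2.23, SE 0.12, limma adjusted p = 5.19e-12), both higher in 3D by less than without MPP, and DDC from 2301 to 2851 (difference -2.08, SE 0.14, limma adjusted p = 5.50e-10). SLC18A2, from 1153 to 6007, was the exception with a larger rise (difference 0.69, SE 0.13, limma adjusted p = 4.61e-04). SLC6A2 and MAOA were lower in 3D in both, with MPP log2 changes of -3.48 and -1.11. CACNA1H went from 25.4 to 58.8 with MPP (difference -6.34, SE 0.47, limma adjusted p = 2.42e-09) and FLT1 from 0.404 to 62.3 (difference -5.28, SE 0.55, limma adjusted p = 3.58e-07). The 2D groups of FLT1 are at or near 0, so its fitted difference depends on the pseudocount.

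**Figure D5:**
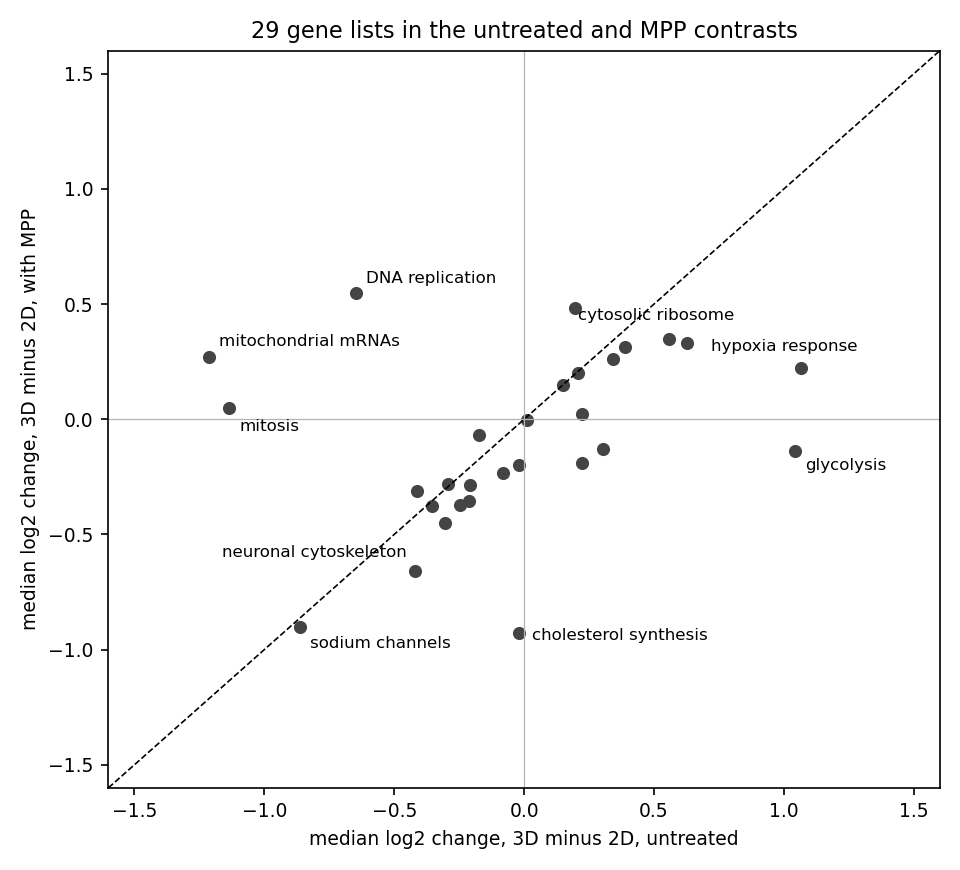
Median log2 change (3D minus 2D) of the genes of each list in untreated cultures (horizontal) and in MPP-treated cultures (vertical), each point a list and the dashed line equality. Glycolysis and hypoxia-response genes lie far below the line, DNA replication, mitosis and mitochondrial mRNA genes above it, and the sodium channel and neuronal cytoskeleton lists near it.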

How the data were processed

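Poly-A selected RNA of 16 SH-SY5Y libraries was sequenced; 4 untreated 2D and 4 untreated 3D libraries are compared here. The deposited values are a signal that is never negative, read counts per gene divided by 1 size factor per library by the authors. The submitters' processing notes name build GRCh38.p13 and the tools STAR, featureCounts, DESeq2, FastQC and CASAVA 1.8.2. The annotation, the strand setting and other options were not given in the sources used here. Each value was a whole multiple of its library's step within 0.01 reads (100% of values), which gave back the whole reads. Untreated libraries of 1 group always differed by more than sampling noise (chi-square per degree of freedom at least 10.1 over 12 pairs).

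limma 3.58.1 with a mean-variance trend was fitted to log2(value + 1) of 16984 genes, those at 10 or above in 4 libraries or more, with all 16 libraries in 1 fit of 4 groups, since these share 1 estimate of the spread. Such log2 changes understate the change of low genes. Calls were made where the p, adjusted by Benjamini-Hochberg over all genes tested, was under 0.05. edgeR 4.0.16 and DESeq2 1.42.0 on the recovered reads, other scalings, pseudocounts, filters, a replicate block and leaving out libraries were alternatives. Shares of reads were compared by exact permutation tests over 8 libraries and adjusted over 8 lists. Gene lists are textbook groups, 66 in all: of 2325 entries 144 were not analysed here. The comparison and the lists were chosen with earlier results of these data known. Named genes are, among called genes with a mean of 50 or more whose groups do not overlap, the 20 highest and 20 lowest changes and up to 5 in each direction per list, beside a set of genes of interest such as TH. Some genes that this rule names are not reported here. Others were chosen after their values were seen: ADM, PGK1, E2F1 and most genes of the closing section. Promoters are 250 bases before the RefSeq start in GRCh38.p14 (13114 genes tested), used for sequence only. Gene spans are of GENCODE v29 and were matched for 98.6% of the protein-coding genes tested. For a group without reads of a gene the floor was 3 reads in total; floors and intervals cover counting error only.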

Additional observations from a re-analysis of the deposited data

Results flagged for a closer look

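Some single libraries lay far from the other 3 of their group, with a gap to the nearest that exceeded the 95% limit of Dixon's test for 4 values. This was so in 20 of 409 groups of 4 values examined, for genes named here and 2 measures of whole libraries, and chance gives about 1 in 20. In untreated 3D replicate 1 the mitochondrial mRNAs took 6.84% of reads, above 3.30% to 3.89% in the other 3, and the 10 genes with the most reads took 9.52%, above 7.73% to 8.03%. In untreated 2D replicate 1 it was CYP26A1 at 31379, above 30735 to 30845, ELAVL4 at 23167, above 20899.9 to 21137 and TUBB3 at 26178, above 22838 to 23294. In untreated 2D replicate 2 it was H19 at 16.4, above 7.41 to 7.85, LMX1B at 41.1, below 52.9 to 55.1, NPY at 9915, below 10976 to 11096 and VHL at 6150.4, below 6409 to 6455. In untreated 2D replicate 4 it was DDC at 2517, below 2795 to 2849. In untreated 3D replicate 1 it was ND1 at 239046, above 116919 to 130278, SCN1A at 59.1, above 41.1 to 43.3 and VEGFA at 46888, above 35444 to 35993. In untreated 3D replicate 3 it was CACNA1H at 1107, above 698 to 752 and SERPINE2 at 22.5, below 80.5 to 91.6. In untreated 3D replicate 4 it was BLCAP at 1111, above 943 to 970.2 and VHL at 7681, above 6121 to 6350.5. HBA2 had 3.45 in untreated 2D replicate 1 and 0 in the other 3. INSM1 had 4.71 in untreated 2D replicate 3 and 0 in the other 3. SOX10 had 3.14 in untreated 2D replicate 3 and 0 in the other 3.

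The 3D against 2D difference itself differed between MPP-treated and untreated cultures for 106 of 200 tested genes examined among those named here. It was read by limma as the difference of the log2 changes, MPP-treated minus untreated, adjusted over all genes tested. For the 11 whose difference the report prints, it was below 0 for CACNA1H (-6.34), DDC (-2.08), EPO (-5.64), FLT1 (-5.28), HK2 (-2.33), NDUFA4L2 (-3.58), SLC18A1 (-2.23), TH (-1.18) and VEGFA (-3.25), and above 0 for EPAS1 (0.48) and SLC18A2 (0.69). Over all genes tested it was called for 15.3%. Many of the named genes were picked for large changes in untreated cultures, which enter this difference. That choice may raise their count, so it cannot be set against the share of all genes.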

How the results depend on the processing

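The alternatives were read for 185 genes among those described here as higher or lower in untreated 3D. Of these, 176 kept their call and direction under each of the 23 alternatives that could be computed for them. The other 9 (COL1A1, DBH, DRD2, HAS2, ND1, PFKM, PITX3, RIPPLY3 and TUBB3) lost the call or changed sign under at least 1. DBH had a log2 change of 0.10 under quantile normalisation, the other sign, and the cause was not tested. Without 1 library at a time, 7017 to 7626 genes were called (3507 to 3827 higher, 3509 to 3800 lower, 1971 to 2099 by 2-fold), and 2142 to 2912 for the difference under MPP. Without 3D replicates 1 and 3 together, an alternative chosen after seeing the data, it was 6609. edgeR on the recovered reads called 7722 and DESeq2 8060, and for the difference under MPP 2571 and 3041. Testing only genes with a mean of 50 or more left 1361 genes changed by 2-fold, since fewer genes were tested. Scaling to equal totals of nuclear genes made 38.3% of called genes higher, against 50.2%. Reads on a list, in percentage points of a library (3D minus 2D), came without 1 library to -5.94 to -4.48 for mitochondrial mRNAs, 0.820 to 0.895 for glycolysis, 1.51 to 1.88 for cytosolic ribosome, -0.153 to -0.143 for mitosis, -0.211 to -0.171 for actin and serum response factor, -0.233 to -0.201 for neuronal cytoskeleton, 0.0134 to 0.0223 for cholesterol synthesis and 0.0641 to 0.161 for granule, and 3 against 4 libraries cannot go below an exact permutation p = 0.0571.

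Replicate numbers gave no sign of pairing: the deviations of same-numbered 2D and 3D libraries correlated at -0.115 to -0.0267. Those of libraries with different numbers correlated at -0.0791 to 0.117. These values cannot settle whether same-numbered libraries were handled together. With the replicate number as a block 7634 genes were called by limma and 7480 by edgeR, and 2436 and 2403 for the difference under MPP. 3D libraries were shallower, so low genes are measured less precisely there.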

Other observations

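Several genes with large rises in 3D belong to 2 imprinted regions, where the copy inherited from 1 parent is silenced. In the region of DLK1, DIO3, which inactivates thyroid hormone, was 22.4, 30.8, 21.2 and 29.6 in 2D and 460.3, 446, 620.3 and 399.7 in 3D (log2 4.16, SE 0.38, limma adjusted p = 8.38e-09). RTL1, a retrotransposon-derived gene, rose from 1358 ± 103 to 3061 ± 159, and the long noncoding RNAs MEG3 and MEG9 rose from 358 ± 94.6 to 923 ± 289.8 and from 384 ± 90.6 to 1504 ± 510.1. The genes expressed from the paternal copy (DLK1, RTL1, DIO3) and the maternal copy (MEG3) were all higher. In the IGF2 region H19 rose from 9.87 ± 4.39 to 42.6 ± 13.2, and KCNQ1OT1, a noncoding RNA from a neighbouring domain, was 34.5, 57.6, 108 and 80.4 in 2D and 1263, 1037, 1531 and 1418 in 3D (log2 4.31, SE 0.28, limma adjusted p = 2.79e-11), beside a rise of the maternally expressed CDKN1C.

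Outside these regions the imprinted genes had no common direction. GRB10 and ZDBF2 rose from 8.85 ± 4.95 to 163 ± 32.6 and from 2619 ± 403 to 7945 ± 1744, and MEST, NDN, NNAT, NAP1L5 and BLCAP fell, with log2 changes of -0.85, -1.80, -0.65, -0.62 and -0.58. PEG10, PLAGL1, SGCE, GNAS, MAGEL2 and IGF2R were not called, with log2 changes of 0.04, -0.01, 0.08, 0.09, 0.14 and -0.10. With MPP the log2 changes were 4.28 for DLK1, 2.00 for DIO3, 1.30 for MEG3, -0.42 for RTL1 and 0.85 for KCNQ1OT1, with DLK1 and MEG3 close to their untreated values and RTL1 of the other sign. These genes were chosen after their values were seen, they are no list with a test, and the counting is not stated to use strand, so reads of overlapping antisense partners cannot be told apart.

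Of 34 interferon and NF-kappaB genes tested 6 rose and 10 fell (17.6% and 29.4%, against 23.2% and 23% of all genes tested). Of those that fell, these were picked after their values were seen: OAS1 and OAS3, sensors of double-stranded RNA, fell from 259.9 ± 34.5 to 94.3 ± 16.3 and from 255 ± 37.2 to 99.8 ± 45.6, IFI44 from 134 ± 7.20 to 15.6 ± 5.74, and TLR7, a receptor for single-stranded RNA, from 127 ± 27.4 to 14 ± 6.02. Of 21 HOX genes tested, which record position along the body, 5 rose and 6 fell (23.8% and 28.6%, near the shares of all genes tested). HOXD12 fell from 38.8 ± 21.2 to 3.72 ± 2.59. Untreated 3D replicate 3, which stood apart on the second component, had 75 genes more than 2-fold below the range of the other 3 libraries, against 8 to 21 in the others of its group, among them RIPPLY3, at 14.8, 25.8, 0 and 56.7, and SERPINE2, at 82.3, 91.6, 22.5 and 80.5.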
